A study of Homo sapiens with 12 samples.

Results

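MALAT1, NEAT1 and TALAM1 are long noncoding RNAs of chromosome 11, and their 3 rows were followed here among the 61255 rows of a count table from arsenite-stressed human cells. They were chosen by name: MALAT1, NEAT1, and TALAM1, which is annotated antisense to MALAT1. The cell line was Huh-7.5, which derives from a human hepatocellular carcinoma and is established in culture, and it carried the genotype APEX-NES, APEX-NLS or APEX-G3BP1. APEX2 is a peroxidase used for proximity labelling. NES commonly stands for nuclear export signal, NLS for nuclear localization signal, and the G3BP1 protein is a component of stress granules. Mock-treated cells and cells given 0.5 mM sodium arsenite over 45 minutes were compared in each line, in 6 groups of 2 replicates, and the 12 libraries were made from total RNA. All groups share the Huh-7.5 background and an APEX2 construct, so no library shows cells without one, and whether a line is 1 clone is not given in the sources used here. The question of the comparison was how each RNA differs between mock and stressed cells and between lines.

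MALAT1 is known as an abundant RNA of the nucleus that gathers in nuclear speckles, the bodies where splicing factors are stored. NEAT1 is the RNA scaffold of paraspeckles, nuclear bodies that form around its long isoform and that respond to cell stress. TALAM1 is transcribed from the strand opposite MALAT1 and is known to pair with it and to favour the maturation of its 3′ end. MALAT1 and the long isoform of NEAT1 both end in a stretch folded like a tRNA. RNase P cuts there, which leaves the long RNA without an ordinary poly(A) tail.

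The genes lie close together. In GENCODE 29 on GRCh38, NEAT1 is a single-exon lincRNA on the plus strand at chr11:65422774-65445540, and MALAT1 lies on the plus strand at chr11:65497688-65506516 with all its 8829 bases exonic once its transcripts are merged. TALAM1 was matched in RefSeq, where its span of 8121 bases shares 7205 bases with the 8779-base span of MALAT1. The shared stretch is 88.7% of TALAM1 and 82.1% of MALAT1. MALAT1 begins 1574 bases before the TALAM1 span is reached, and TALAM1 reaches 916 bases past the MALAT1 end. A gap of 52197 bases separates the end of NEAT1 from the start of MALAT1. Over the shared stretch only the strand of a read separates MALAT1 from TALAM1.

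The tRNA-like small RNAs that follow the cut are shown because they are where MALAT1 and NEAT1 resemble each other, and because the MALAT1 copy can be written for both strands. The MALAT1 copy lies at chr11:65506117-65506173 and the NEAT1 copy at chr11:65445541-65445598 (GENCODE 29, GRCh38, plus strand). Capitals mark the bases shared by both in a global alignment, which held 40 identical columns of 59 (67.8%). The third line is the MALAT1 copy read 5′ to 3′ on the opposite strand, the strand of TALAM1.
MALAT1 small RNA: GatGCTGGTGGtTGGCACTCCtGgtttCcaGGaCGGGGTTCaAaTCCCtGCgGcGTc
NEAT1 small RNA: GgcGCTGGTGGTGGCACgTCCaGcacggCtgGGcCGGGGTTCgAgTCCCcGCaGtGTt
Opposite strand of the MALAT1 small RNA: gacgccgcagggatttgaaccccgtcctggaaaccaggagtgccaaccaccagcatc
The rows of both small RNAs held 0 counts in all 12 libraries. They are only 57 and 58 bases long, and the MALAT1 copy lies inside the MALAT1 row on the same strand. Counts of 0 therefore do not show that these RNAs were absent.

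Of the 3 genes, MALAT1 alone was matched in the RefSeq table of promoter windows (GRCh38.p14), where it has start windows of 300 bases. The window at chr11:65497488-65497787 covers the first annotated start, and the window at chr11:65498795-65499094 is the start nearest the edge of the TALAM1 span. Both are shown with capitals for matches on either strand to TATAAA, to the antioxidant response element core TGACNNNGC, to the heat shock element core GAANNTTC or to the AP-1 site TGANTCA.
MALAT1 first start window: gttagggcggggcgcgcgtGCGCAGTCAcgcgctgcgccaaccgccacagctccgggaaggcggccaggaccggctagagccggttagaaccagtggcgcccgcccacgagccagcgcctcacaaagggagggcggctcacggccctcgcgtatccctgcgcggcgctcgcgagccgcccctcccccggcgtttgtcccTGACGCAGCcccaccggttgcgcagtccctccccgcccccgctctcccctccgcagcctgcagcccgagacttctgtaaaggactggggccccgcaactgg
MALAT1 second start window: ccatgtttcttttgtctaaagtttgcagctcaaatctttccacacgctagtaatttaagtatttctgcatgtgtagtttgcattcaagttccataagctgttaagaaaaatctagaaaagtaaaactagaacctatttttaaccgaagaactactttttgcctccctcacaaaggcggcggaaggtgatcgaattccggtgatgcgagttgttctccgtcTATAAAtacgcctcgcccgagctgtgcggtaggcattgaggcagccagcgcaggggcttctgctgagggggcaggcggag
The first window had 2 matches to TGACNNNGC, which occurred in 13.3% of the 35116 windows of that table, and none to the other motifs. The second window had 1 match to TATAAA, which occurred in 11.5% of windows, and none to the other motifs. GAANNTTC, present in 6.77% of all windows, and TGANTCA, present in 7.71%, had no match in either.

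The row named TALAM1 held more counts than any other row in each of the 12 libraries, while MALAT1 and NEAT1 were close to the limit of detection. Library totals lay between 1090308 and 1461067 counts, and 3 counts, taken as the smallest level a library could show, corresponded to between 2.02 and 2.81 CPM (the usual counts-per-million unit, here with TMM-adjusted library totals). TALAM1 was counted 67431 and 66327 times in the NES mock libraries and 81932 and 66713 times in the NES arsenite libraries. In the NLS line it had 58203 and 63022 counts after mock treatment and 71002 and 76779 after arsenite. In the G3BP1 line it had 44233 and 49616 counts after mock treatment and 61258 and 67813 after arsenite. The row with the next most counts was ENSG00000258017 in the NES and NLS libraries and ENSG00000269968 in the G3BP1 libraries, and TALAM1 exceeded it between 2.85-fold and 4.4-fold.

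MALAT1 had 18 and 24 counts in the NES mock libraries and 25 and 18 in the NES arsenite libraries. The NLS line gave 16 and 21 counts after mock treatment and 23 and 23 after arsenite. The G3BP1 line gave 19 and 17 counts after mock treatment and 16 and 37 after arsenite. Mock and arsenite libraries overlapped, and the 37 counts of the second G3BP1 arsenite library were the highest MALAT1 value. NEAT1 had 2 and 3 counts in NES mock libraries, again 2 and 3 in NES arsenite libraries, 6 and 2 in NLS mock libraries and 2 and 9 in NLS arsenite libraries. In the G3BP1 line NEAT1 had 0 and 4 counts after mock treatment and 1 and 1 after arsenite. A count of 0 in the first G3BP1 mock library allows a level of up to 2.81 CPM.

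Per kilobase of RefSeq span, TALAM1 stood at 5640 ± 390 CPM per kb in mock libraries and 6600 ± 341 in arsenite libraries (SD, n = 6 each). MALAT1 stood at 1.74 ± 0.279 and 2.03 ± 0.617 CPM per kb in the same libraries, and NEAT1 at 0.0974 ± 0.0717 and 0.0961 ± 0.0884. TALAM1 outnumbered MALAT1 by a count ratio between 1833 and 3829. The library kit keeps the strand of the RNA, but the strand setting used in counting is not given in the sources used here. Whether reads counted for TALAM1 came from TALAM1 or from MALAT1 therefore cannot be told apart, and every value below belongs to the row of that name.

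**Figure D1:**
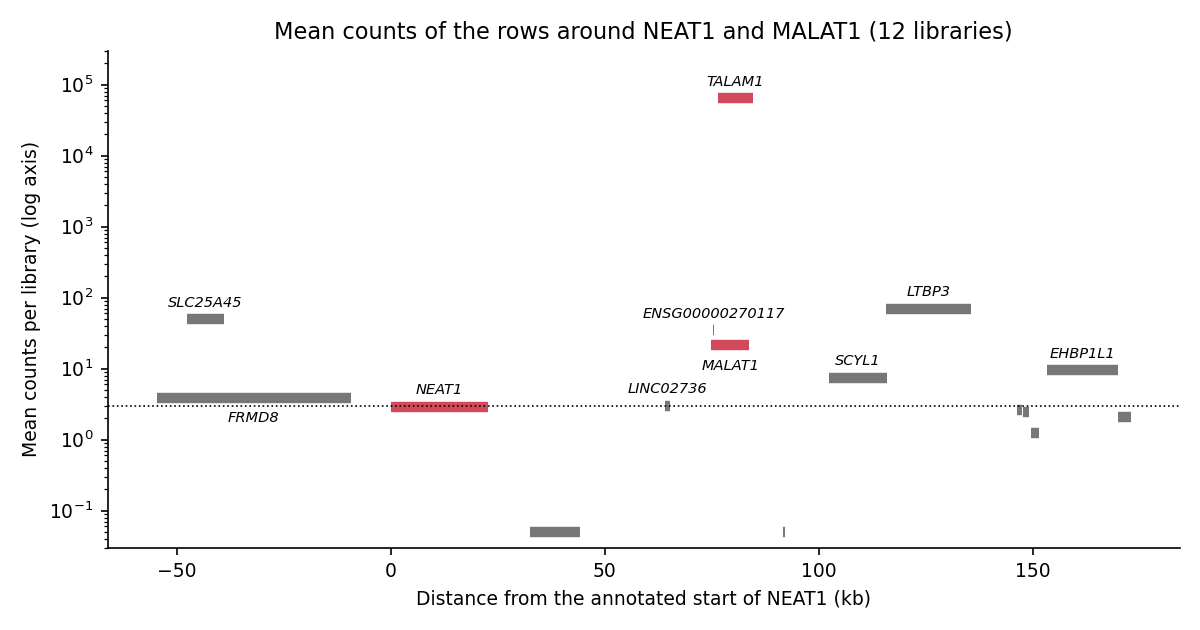
Mean counts per library (log axis, 12 libraries) of the rows around NEAT1 and MALAT1, drawn at their distance in kb from the annotated start of NEAT1. Red bars are TALAM1, MALAT1 and NEAT1, grey bars are neighbours, the dotted line marks 3 counts and rows at 0 are drawn at the bottom; the TALAM1 bar, counted at least 44233 times in every library, stands above MALAT1, which had 37 counts or fewer.

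The pairing of a high row with a low row on the opposite strand was also seen at other genes of the lists used here. GENCODE 29 places a row of the table on the strand opposite 57 of the list genes, marker genes and neighbours of the locus left out. The rows overlap in exons, and where several lay opposite 1 gene the one with the most CPM per exon kilobase was taken. In 48 of these the opposite-strand row had more CPM per exon kilobase than the named gene, in 7 the named gene had more, and in 2 both were at 0. Among the 41 genes with a single opposite-strand row, that row had more in 33. HNRNPK, which binds nucleic acids in paraspeckles, had 0.808 CPM per exon kb against 1800 for HNRNPK-AS1. TUG1, a nuclear and cytoplasmic long noncoding RNA, had 0.347 against 992 for ENSG00000269972. RBM4B went the other way, with 250 against 33.1 for RBM4. NEAT1 has no opposite-strand row in GENCODE 29, so reads assigned to the strand opposite NEAT1 would be counted in no row of that annotation. With the strand setting not given, few counts in the NEAT1 row do not show that NEAT1 RNA was scarce.

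Rows of cell type markers were also read. With the strand setting not given, a marker row may hold reads of the gene's own strand or of the other. These rows therefore cannot check the labelled cell type, and low counts do not show that a marker was absent. ALB, serum albumin, had 11 to 29 counts, APOB, the apolipoprotein of low-density lipoprotein, 77 to 145 and AFP, alpha-fetoprotein, 25 to 95, while TTR had 0 or 1 and APOH 0. APOA1, the main apolipoprotein of high-density lipoprotein, had 13.8 CPM per exon kb and the opposite-strand row APOA1-AS 4480. Of the 17 hepatocyte markers, 6 had under 10 counts in every library, and their summed level was 227 to 408 CPM in mock and 284 to 421 CPM in arsenite libraries. Of 5 fibroblast markers, LUM was at 0 and COL3A1 was called higher after arsenite, and their summed level was 5.36 to 12.1 CPM in mock and 29.7 to 50.8 CPM in arsenite libraries. COL3A1 alone averaged 9.47 and 39.7 CPM, and COL1A1, COL1A2 and DCN had at most 2 counts in any library. Their part in the results below was not tested. Summed blood markers were 20.6 to 25.2 and 15.4 to 22.4 CPM, with HBB at 0 and CD68 called lower, and summed endothelial markers 0 to 12.5 and 2.02 to 8.33 CPM, with VWF at 0.

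TALAM1 rose after arsenite in all 3 lines, by a small factor. Its level was 45800 ± 3167 CPM in mock libraries and 53620 ± 2772 CPM in arsenite libraries (SD, n = 6 each). The highest mock library stood at 50000 CPM and the lowest arsenite library at 51020 CPM, so the treatments did not overlap on this scale. In bulk RNA, more RNA per cell and more cells holding it cannot be told apart. The average log2 fold change over lines was 0.23 (SE 0.0335), a 1.17-fold rise with an approximate 95% interval of 1.12 to 1.23 (edgeR quasi-likelihood test, adjusted p = 1.2e-08). For this comparison 38.0% of the 13108 tested rows were called, 2545 higher and 2442 lower, at an adjusted p under 0.05. With scaling by total counts 2160 of 5028 called rows were higher, so the larger direction turned, while TALAM1 was called higher under both scalings. Of the rows called higher, 2266 had a larger log2 rise than TALAM1, and the median rise among called rows was 0.66.

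In the NES line TALAM1 went from 49150 ± 1195 to 57150 ± 126 CPM (SD, n = 2 each). The log2 fold change was 0.22 (SE 0.0616, edgeR adjusted p = 0.00488), in a comparison that called 20.3% of rows. In the NLS line it went from 45400 ± 2016 to 52070 ± 433 CPM, which is 0.20 on the log2 scale (SE 0.0616; adjusted p = 0.014 in edgeR), where 17.8% of rows were called. In the G3BP1 line it went from 42860 ± 2118 to 51650 ± 899 CPM, which is 0.27 on the log2 scale (SE 0.0617; adjusted p = 0.000488 in edgeR), where 16.3% of rows were called. In each line both arsenite libraries were above both mock libraries. Each line's call rested on its first mock library: without it the log2 fold change was 0.21 in NES (adjusted p = 0.0813), 0.14 in NLS (adjusted p = 0.255) and 0.20 in G3BP1 (adjusted p = 0.0622 in edgeR). The 3 line comparisons and the average use the same libraries and are not separate evidence.

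The arsenite response of TALAM1 was not shown to differ among lines. The 3 line-specific log2 fold changes spanned 0.07 (joint edgeR test of the difference, adjusted p = 0.95), in a test that called 0.183% of rows. The share of all counts that TALAM1 held amounts to scaling by total counts, without TMM. It went from 4.67 ± 0.411% in mock to 5.28 ± 0.402% in arsenite libraries (SD, n = 6 each). This share was higher after arsenite in 6 of 6 same-numbered comparisons, with a mean log2 difference of 0.18 (two-sided exact permutation test within lines, p = 0.00926, the smallest this design allows). The mock range of 4.06% to 5.09% and the arsenite range of 4.79% to 5.71% overlapped over all lines. Within each line the shares of the 2 treatments did not overlap. The exact binomial 95% interval of the share in the first NES mock library was 4.93% to 5.00%, and such intervals leave out all but counting error, as reads carried no molecular identifiers and may repeat a molecule. Replicates differed by 0.312% to 6.99% of their mean, against a counting error of 0.521% to 0.654%, so that the spread between replicates exceeded counting error in 5 of the 6 groups.

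**Figure D2:**
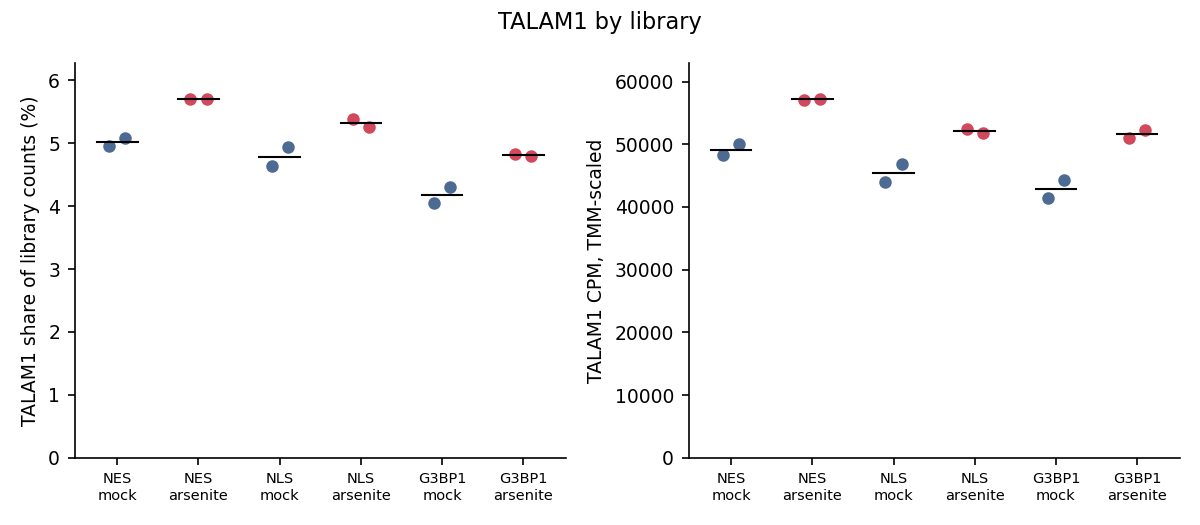
TALAM1 in each library as a percentage of all library counts (left) and as TMM-scaled CPM (right), blue for mock and red for arsenite, with a black bar at the mean of the 2 replicates. Arsenite points lie above the mock points of the same line in both panels, from 41360 to 50000 CPM in mock and from 51020 to 57240 CPM in arsenite libraries.

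The order of the 6 groups in TALAM1 CPM began with NES arsenite (57150), followed by NLS arsenite (52070) and G3BP1 arsenite (51650), whose libraries overlapped. NES mock (49150) came next, and NLS mock (45400) and G3BP1 mock (42860), which overlapped each other, were lowest. Over both treatments TALAM1 was lower in the NLS than in the NES line, at -0.12 on the log2 scale (SE 0.041; adjusted p = 0.033 in edgeR), in a comparison that called 10.9% of rows. This call was lost with scaling by total counts (-0.0850, adjusted p = 0.111 by edgeR). It was also lost when any 1 of 5 libraries was left out, namely either NES mock library, the first NLS mock library or either NLS arsenite library, with edgeR adjusted p between 0.0544 and 0.144. TALAM1 was lower in the G3BP1 line than in the mean of the other lines, at -0.11 on the log2 scale (SE 0.0357; adjusted p = 0.0131 in edgeR), where 28.7% of rows were called. Without the first G3BP1 mock library the value was -0.0855 (edgeR adjusted p = 0.0761). With total counts it was -0.21, where the median of all rows stood at -0.11 in place of -0.01.

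MALAT1 did not pass the test for arsenite in any fit. Its level was 15.3 ± 2.45 CPM in mock and 17.9 ± 5.42 CPM in arsenite libraries (SD, n = 6 each), with ranges of 12.1 to 18.1 and 13.3 to 28.5 CPM that overlapped. The average log2 fold change was 0.23 (SE 0.192), a factor of 1.17 with an approximate 95% interval of 0.903 to 1.52 (edgeR adjusted p = 0.36). This interval contains the factor found for TALAM1 and also no change. The counting error of a difference between MALAT1 replicates was 29.5% to 33.4% of the mean, so a change of the size seen for TALAM1 was not detectable at this depth. Without the second G3BP1 arsenite library, the one with 37 counts, the average log2 fold change was 0.06.

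Line by line, the MALAT1 log2 fold change was 0.10 (SE 0.327) in NES, 0.22 (SE 0.332) in NLS and 0.36 (SE 0.324) in G3BP1, with edgeR adjusted p of 0.885, 0.709 and 0.504. Leaving out the first NES mock library turned the NES value to -0.12, and leaving out the second G3BP1 arsenite library turned the G3BP1 value to -0.31. Differences among lines were not called (edgeR adjusted p = 0.977). MALAT1 differed between NLS and NES by -0.09 (SE 0.236, edgeR adjusted p = 0.874), and G3BP1 differed from the other lines by 0.28 (SE 0.203, edgeR adjusted p = 0.323). The sign of the NLS value turned without the second NES mock library (0.03), and the G3BP1 value fell to -0.01 without the second G3BP1 arsenite library. In CPM the group means of MALAT1 ran from 13.8 in NLS mock to 20.9 in G3BP1 arsenite libraries, and no neighbours in that order were separated by their ranges.

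The count ratio of TALAM1 to MALAT1 was 3066 ± 539 in mock and 3178 ± 715 in arsenite libraries (SD, n = 6 each). It was higher after arsenite in 3 of 6 comparisons, with a mean log2 difference of 0.03 (two-sided exact permutation test, p = 0.87). Leaving out 1 library moved this difference between -0.14 and 0.21.

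NEAT1 did not pass the filter on low counts, so its fold change was not tested with the other rows. Summed over libraries it had 17 counts among 7433971 in mock and 18 among 8069441 in arsenite libraries. On unscaled totals that is 2.29 CPM (exact Poisson 95% interval 1.33 to 3.66) and 2.23 CPM (1.32 to 3.53), a ratio of 0.975 with an interval of 0.474 to 2.01 that covers counting error only. A change of the NEAT1 row within these bounds was not detectable at this depth. With the strand setting not given, this belongs to the row and not to NEAT1 RNA. By line, NEAT1 had 10 counts in NES, 19 in NLS and 6 in G3BP1 libraries, and 9 of the 19 came from 1 arsenite library. The count ratio of NEAT1 to TALAM1 differed between arsenite and mock by -0.21 on the log2 scale (two-sided exact permutation test, p = 0.741), a value that ran from -0.71 to 0.30 as 1 library at a time was left out.

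**Figure D3:**
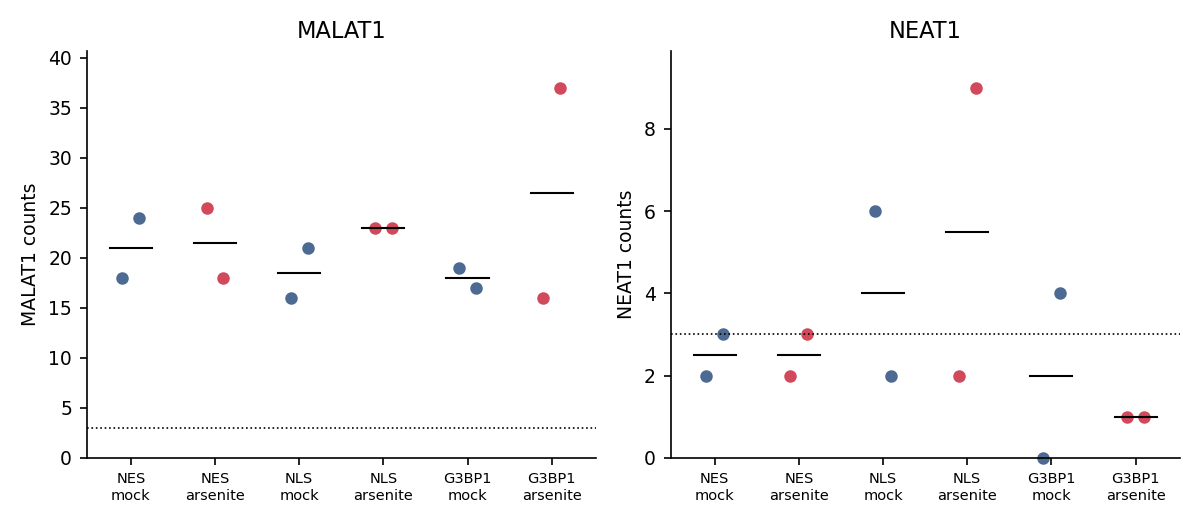
Counts of MALAT1 (left) and NEAT1 (right) in each library, blue for mock and red for arsenite, with a black bar at the mean of 2 replicates and a dotted line at 3 counts. MALAT1 lies between 16 and 37 counts and NEAT1 between 0 and 9, with mock and arsenite points overlapping.

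A further row lies on the strand opposite MALAT1, near its annotated start and before the RefSeq span of TALAM1. ENSG00000270117 is a lincRNA of 396 bases at chr11:65498010-65498405 (GENCODE 29, GRCh38, minus strand). It had 19 to 49 counts per library, 24.6 ± 5.70 CPM in mock and 28.6 ± 8.12 CPM in arsenite libraries (SD, n = 6 each). The average arsenite effect on ENSG00000270117 was a log2 fold change of 0.21 (SE 0.152; adjusted p = 0.291 in edgeR), which was not called. In the NES line its log2 fold change of 0.54 missed the threshold (SE 0.239; adjusted p = 0.0987 in edgeR). It was lower in the G3BP1 line, where the 4 libraries stood at 17.8 to 22.4 CPM, below all 8 libraries of the other lines at 25.1 to 42.0 CPM. The log2 fold change of G3BP1 against the mean of the other lines was -0.62 (SE 0.174), a factor of 0.652 with an interval of 0.515 to 0.825 (edgeR adjusted p = 0.00339). It was called in 19 of 19 alternatives. Per exon kilobase ENSG00000270117 had 67.3 CPM and MALAT1 1.88. Its log2 CPM correlated with that of TALAM1 with Pearson's r = 0.607 over 12 libraries, as a description with no test.

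**Figure D4:**
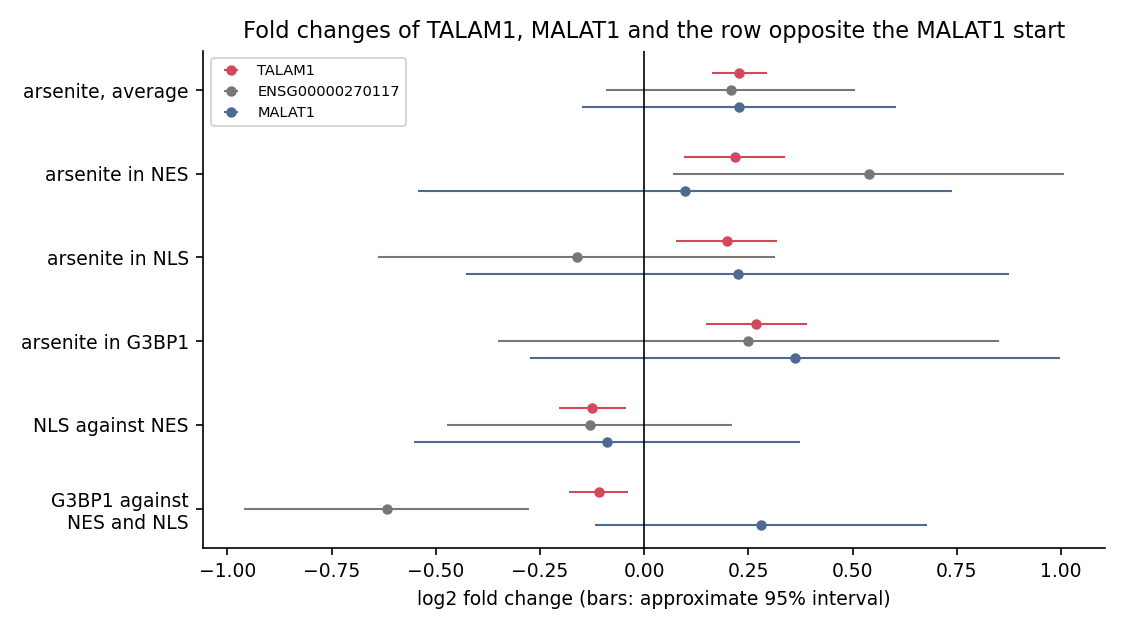
Log2 fold changes of TALAM1 (red), ENSG00000270117 (grey) and MALAT1 (blue) in 6 comparisons, with bars for the approximate 95% interval. The TALAM1 bars lie above 0 for arsenite and below 0 for both line comparisons, the MALAT1 bars include 0 throughout, and ENSG00000270117 stands at -0.62 in the G3BP1 line.

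Around the locus, 26 of 32 genes and RNAs annotated near NEAT1 and MALAT1 were rows of the table, 20 of them had under 10 counts in every library and 5 were tested. EHBP1L1, an actin-linked membrane trafficking protein, was the only one of them called, against 38.0% called over all rows. It had 1 to 4 counts in mock and 14 to 19 in arsenite libraries. Its mean went from 1.67 CPM, under the level of 3 counts, to 12.7 CPM, which is 2.83 on the log2 scale (SE 0.352; edgeR adjusted p = 4.09e-11). LTBP3, which binds latent TGF-beta, stood at 50.6 and 57.2 CPM (log2 fold change 0.18, edgeR adjusted p = 0.213). SLC25A45, a mitochondrial carrier, stood at 41.1 and 35.2 CPM (-0.22, edgeR adjusted p = 0.198). The median over the 5 tested rows was 0.18, against -0.01 over all 13108 rows. LINC02736, between NEAT1 and MALAT1, had 3 to 8 counts in mock and 0 to 3 in arsenite libraries and did not pass the filter; it was singled out after its values were seen.

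The genes of proteins that build paraspeckles with NEAT1 often had few counts. All 27 were rows of the table, 12 had under 10 counts in every library and 13 were tested, of which 3 were called higher, 2 lower and 8 not called, against 38.0% called over all rows, and the median log2 fold change was 0.03 against -0.01 over all rows. With the strand setting not given, a list row may hold reads of the gene's own strand or of the other. This holds whether or not the annotation places a row on the opposite strand. SRSF10, a splicing regulator, rose from 15.7 to 47.9 CPM, or by 1.57 on the log2 scale (SE 0.159; adjusted p = 8.53e-15 in edgeR). PSPC1, a core paraspeckle protein, rose from 6.67 to 10.7 CPM (0.70, edgeR adjusted p = 0.035), and ZNF24, a zinc finger factor, from 19.8 to 26.5 CPM (0.41, edgeR adjusted p = 0.0342). Both calls depended on the setting, and were kept in 11 of 20 alternatives for PSPC1 and in 8 of 20 for ZNF24. RBM4B, a splicing factor, fell from 1307 to 853 CPM (-0.61, SE 0.0429, edgeR adjusted p = 7e-24), and its opposite-strand row RBM4 also fell (-0.37, edgeR adjusted p = 1.44e-07). UBAP2L, also a stress granule protein, fell from 16.8 to 10.5 CPM (-0.66, edgeR adjusted p = 0.00806), a call lost without the second NLS mock library (adjusted p = 0.0642). CIRBP, a cold-inducible RNA-binding protein, stood at 62.6 and 70.4 CPM and missed the threshold (edgeR adjusted p = 0.145), while the opposite-strand row CIRBP-AS1 fell (-0.68, edgeR adjusted p = 6.99e-05). PSPC1-AS2, opposite PSPC1, was not called (0.28, edgeR adjusted p = 0.231).

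Splicing proteins of the nuclear speckles, where MALAT1 resides, gave 6 tested rows of 25, with 3 called higher and 1 lower, against 38.0% of all rows called, and a median log2 fold change of 0.51, and 16 of the 25 had under 10 counts in every library. SRSF11 rose from 6.17 to 35.1 CPM, or by 2.46 on the log2 scale (SE 0.201; adjusted p = 6.22e-20 in edgeR). U2AF2, which recognises the 3′ splice site, rose from 11.7 to 34.1 CPM (1.53, edgeR adjusted p = 6.99e-12), and SON, a scaffold of the speckle, from 18.6 to 35.6 CPM (0.95, edgeR adjusted p = 2.17e-07). SRSF1, a splicing factor bound by MALAT1, fell from 27.3 to 18.9 CPM (-0.52, edgeR adjusted p = 0.00775), a call lost without the first NES mock library (adjusted p = 0.0653). SRRM2, another scaffold of the speckle, stood at 28.4 and 29.6 CPM (edgeR adjusted p = 0.766). ENSG00000267523, opposite U2AF2 and better counted at 78.5 CPM, fell (-0.24, edgeR adjusted p = 0.0292). DONSON, opposite SON at 475 CPM, also fell (-0.20, edgeR adjusted p = 0.000355), while GART, likewise opposite SON, was not called (0.43, edgeR adjusted p = 0.0541). ENSG00000279069, opposite SRSF1 at 413 CPM, rose (0.13, edgeR adjusted p = 0.0256). At these 3 genes a called row on each strand moved in opposite directions, so with the strand setting not given the direction belongs to the row and not to the gene. The opposite-strand rows MFSD11 at SRSF2 and HNRNPK-AS1 at HNRNPK were called higher, by 0.34 and 0.12 on the log2 scale (edgeR adjusted p = 5.61e-12 and 0.0237).

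Factors that process, modify or degrade these RNAs gave 10 tested rows of 24, of which 5 were called higher and none lower, against 38.0% of all rows called, with a median log2 fold change of 0.40. METTL14, a subunit of the m6A methyltransferase, rose from 3.72 to 10.1 CPM (1.40, edgeR adjusted p = 0.000191). DGCR8, the partner of DROSHA, rose from 16.5 to 26.9 CPM (0.71, edgeR adjusted p = 0.000314), and POP5, a protein subunit of RNase P, from 9.17 to 14.8 CPM (0.68, edgeR adjusted p = 0.0129, kept in 16 of 20 alternatives). ENSG00000243762, opposite DGCR8 and better counted at 114 CPM, fell (-0.22, edgeR adjusted p = 0.0196), so here too the direction belongs to the row. WTAP, another methyltransferase subunit, stood at 80.7 and 85.5 CPM (edgeR adjusted p = 0.565), and MTREX, the helicase of the nuclear exosome, at 50.3 and 53.6 CPM (edgeR adjusted p = 0.604).

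Transcription factors known to act on the NEAT1 or MALAT1 promoters under stress gave 6 tested rows of 13, of which 3 were called higher and none lower, against 38.0% of all rows called, with a median log2 fold change of 0.31. JUN, a subunit of AP-1, had 0 to 5 counts in mock and 7 to 18 in arsenite libraries. Its mean rose from 1.6 CPM, under the level of 3 counts, to 9.9 CPM (log2 fold change 2.54, edgeR adjusted p = 1.06e-07). ATF4, a factor of the integrated stress response, rose from 3.87 to 14.8 CPM (1.93, edgeR adjusted p = 1.33e-08), and RELA, a subunit of NF-kappa-B, from 8.27 to 13.4 CPM (0.67, edgeR adjusted p = 0.0177, kept in 15 of 20 alternatives). HSF1, the heat shock factor, stood at 25.2 and 22.3 CPM (edgeR adjusted p = 0.39). NFE2L2, the regulator of the antioxidant response, stood at 2669 and 2571 CPM (edgeR adjusted p = 0.225), and was called lower with scaling by total counts with and without TALAM1 (edgeR adjusted p = 0.00779 and 0.0157).

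Other long noncoding RNAs of the nucleus or of stress gave 18 tested rows of 33, with 4 called higher, 4 lower and 10 not called, against 38.0% of all rows called. SNHG12, a small nucleolar RNA host gene, rose from 8.94 to 19.9 CPM (log2 fold change 1.16, edgeR adjusted p = 2.77e-06), and TRNAU1AP on the opposite strand fell (-1.03, edgeR adjusted p = 4.59e-06). The structured RNAs RMRP and RN7SL1 rose by 0.41 and 0.35 (edgeR adjusted p = 0.0311 and 0.0283), calls kept in 9 and 11 of 20 alternatives. DANCR fell from 19.4 to 10.6 CPM (-0.88, edgeR adjusted p = 0.000202) and JPX from 16.1 to 8.47 CPM (-0.93, edgeR adjusted p = 0.000475). FTX, opposite JPX, fell as well (-0.37, edgeR adjusted p = 4.84e-11), and ENSG00000248375, opposite DANCR, was not called (0.12, edgeR adjusted p = 0.499). NORAD, which binds PUMILIO proteins, fell from 18.0 to 12.5 CPM (-0.53, edgeR adjusted p = 0.0332, kept in 12 of 20 alternatives). OIP5-AS1, at 235 and 249 CPM, and SNHG14, at 286 and 273 CPM, missed the threshold (edgeR adjusted p = 0.244 and 0.305). UBE3A, opposite SNHG14, had only 1 to 15 counts per library and was called higher (0.85, edgeR adjusted p = 0.0325). With a log2 fold change of 0.23, TALAM1 lay inside the range of these 18 rows, -0.93 to 1.16, whose median was 0.01.

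**Figure D5:**
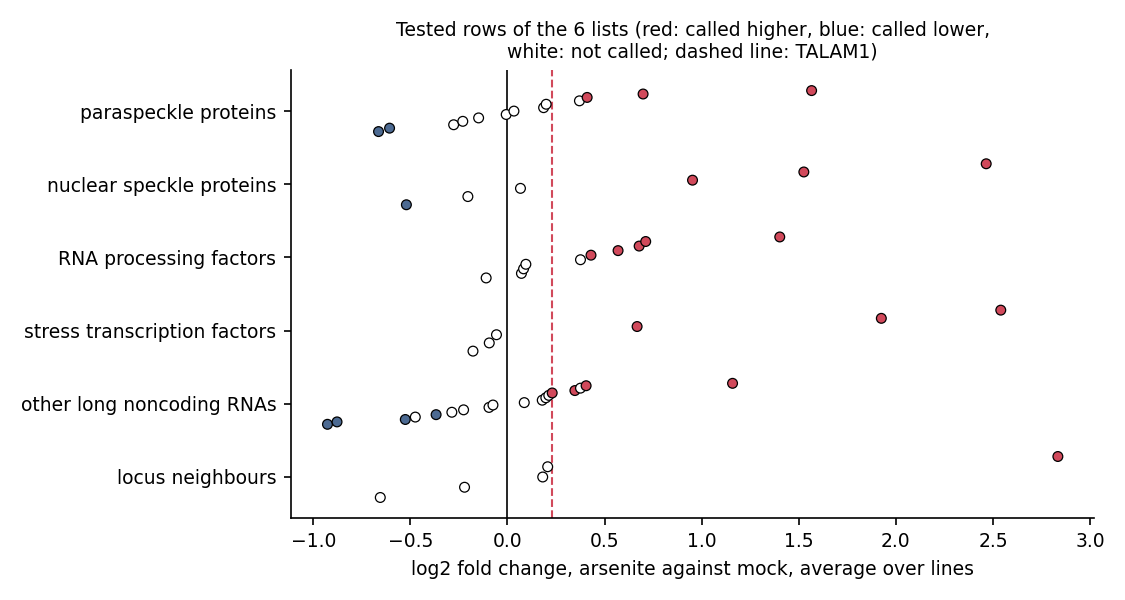
Log2 fold changes of the tested rows in 6 lists for arsenite against mock, averaged over lines (horizontal axis), with red points called higher, blue points called lower and white points not called. The dashed line marks TALAM1 at 0.23, and points lie on both sides of 0 in each list.

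Among the rows whose log2 CPM followed TALAM1 most closely over the 12 libraries, among tested rows with a mean of at least 20 CPM, were DHRS7 (r = 0.959), ENSG00000254641 (0.956), MAP3K12 (0.948) and DNAJC14 (0.944). DHRS7 encodes a short-chain dehydrogenase, MAP3K12 a kinase of the JNK pathway and DNAJC14 a chaperone cofactor. Each of these 4 rows lies opposite another gene in the annotation, MAP3K12 opposite PCBP2 among them. Their log2 fold changes after arsenite ran from 0.27 for ENSG00000254641 to 0.77 for DHRS7. The least alike were CEMIP (-0.96), a hyaluronan-binding protein, and MASP2 (-0.956), a complement protease. CEMIP also lies opposite other genes and MASP2 does not, so this trait is not particular to the rows most like TALAM1. All libraries share their total and treatment with TALAM1, so these values are descriptions.

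For MALAT1 the highest r was 0.851 (TUBGCP2, a tubulin complex subunit), and for NEAT1 0.87 (MADCAM1-AS1), but with so few MALAT1 and NEAT1 counts these are no more than the highest of 6392 values. Between the members, r was 0.255 for TALAM1 and MALAT1, 0.0879 for TALAM1 and NEAT1 and -0.399 for MALAT1 and NEAT1 over the 12 libraries.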

How the data were processed

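Raw gene counts were deposited by the authors in 1 table. Per the submitters' processing notes, Trim Galore, Subread, featureCounts and edgeR were used with build GRCh38.p13; versions, annotation and strand setting are not given in the sources used here. Per the labels' protocols, Trizol RNA was depleted of ribosomal RNA and made into libraries with the NEBNext Ultra II Directional kit. All 12 labelled columns were used, and 4 columns that matched no label were not.

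From these counts, edgeR 4.0.16 in R 4.3.3 was run with TMM scaling, filterByExpr (minimum count 10, minimum total 15), and the quasi-likelihood test, with Benjamini-Hochberg adjustment over all 13108 rows tested and calls at an adjusted p under 0.05. The average arsenite effect and the line differences came from an additive model of line and treatment, and the line-specific effects from 1 mean per group. Log2 CPM for likeness used a prior count of 2. Ratios and shares were tested by exact permutation, with 0.5 added to NEAT1 counts. Approximate 95% intervals of fold changes come from the SE. Code was tested on simulated data.

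Replicates of all 6 groups differed beyond sampling noise, and nothing says that they came from separate cultures, so p-values measure the spread between these libraries, which may be technical. The genes and lists were chosen with earlier results of these data known. From each list up to 3 largest called rises and falls averaging at least 1 CPM, and up to 2 rows of at least 20 CPM that missed the threshold, could be named, and the 5 most and 2 least alike rows per gene; some rows that this rule names are not reported here. Alternatives were DESeq2 1.42.0 or its size factors, total counts with or without TALAM1, other filters, a replicate block, single-line fits and leaving out each library. Sequences and spans came from GENCODE 29 (GRCh38) and RefSeq (GRCh38.p14).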

Additional observations from a re-analysis of the deposited data

Results flagged for a closer look

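Among the arsenite libraries, 1 stood apart for MALAT1 and 1 for NEAT1, out of 8 sets of 6 libraries checked by Dixon's test. No set of mock libraries was flagged. Chance marks about 1 set in 20 where values are normal and of 1 population. Each set here mixes 3 lines, so that rate may not hold. MALAT1 stood at 28.5 CPM in the second G3BP1 arsenite library, against 13.3 to 17.4 CPM in the other arsenite libraries (Dixon ratio 0.731, critical value 0.625). NEAT1 stood at 6.07 CPM in the second NLS arsenite library, which is 9 counts, against 0.771 to 2.57 CPM in the others (Dixon ratio 0.66).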

How the results depend on the processing

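The average arsenite effect on TALAM1 was called in 20 of 20 alternatives, at log2 fold changes of 0.18 to 0.24. Leaving out 1 library at a time gave 0.21 to 0.26 in NES, 0.14 to 0.23 in NLS and 0.20 to 0.34 in G3BP1 for the arsenite effect, -0.14 to -0.11 for NLS against NES and -0.126 to -0.0855 for G3BP1 against the other lines. Scaling by total counts, or by total counts without TALAM1, gave -0.0850 and -0.0897 for NLS against NES (edgeR adjusted p = 0.111 and 0.0879). MALAT1 was not called in any alternative.

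Counts of called rows moved more. The DESeq2 test called 1040 rows in NES, 707 in NLS, 757 in G3BP1, 775 for NLS against NES and 0 for the difference among lines, where 1.65% of rows had an unadjusted p under 0.05, against 2658, 2332, 2141, 1434 and 24 with edgeR. Leaving out 1 library gave 1747 to 2739 calls in NES, 1319 to 2412 in NLS and 1204 to 2188 in G3BP1. With total counts the rows called higher went from 2545 of 4987 to 2160 of 5028 for the average effect, from 1427 of 2658 to 1302 of 2689 in NES, from 1266 of 2332 to 1072 of 2352 in NLS, from 1201 of 2141 to 930 of 2107 in G3BP1, from 632 of 1434 to 807 of 1429 for NLS against NES and from 2006 of 3763 to 1409 of 4013 for G3BP1 against the other lines. The cause was not tested.

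Same-numbered libraries did not deviate together (r = -0.0523 in NES, -0.0149 in NLS, 0.0093 in G3BP1). With a replicate block 4985 rows were called for the average effect, against 4987, and the TALAM1 log2 fold change was 0.23; with a block within lines it was 4836 rows. At 1090308 to 1461067 counts per library, the NEAT1 row and most rows of the protein lists were too low to show changes of the size found for TALAM1. Whether depth or the strand counted kept these rows low was not tested.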
